A study of Mus musculus with 97 samples.

Results

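Chromatin was described at Oct4/Sox2 sites, the genomic positions in mouse embryonic stem (ES) cells that the authors' profile table lists under that name. All profiles of this class were taken, which gave 28 of the 188 profiles in the table. Of these, 14 are unsmoothed and the other 14 are the authors' smooth curves of the same profiles. The values below are from the 14 unsmoothed ones, 12 of which are centred on the Oct4/Sox2 motif (MNase-seq and MNase-H3) and the remaining pair on a point that the table calls the summit (ATAC-seq). Each profile gives 1 value per base from 1000 bp before to 1000 bp after the centre, as 1 profile for the whole class. The number, coordinates and sequences of the sites were not used here, so no site or motif sequence is shown.

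Oct4 (Pou5f1) and Sox2 are transcription factors of pluripotent cells that bind next to each other on a composite DNA motif, largely in enhancers. DNA is wrapped around histone octamers as nucleosomes, and bound factors usually sit in gaps between well-placed nucleosomes that line up as a regular array on both sides. When a cell enters mitosis, chromosomes condense and many factors leave their sites, while those that stay are called bookmarking factors. Transposase cuts in ATAC-seq mark open DNA. Micrococcal nuclease (MNase) digests the linker DNA between nucleosomes, so the midpoints of the fragments it spares mark the middle of protected particles. Mild digestion spares fragile particles that strong digestion destroys, and immunoprecipitation of histone H3 keeps particles that contain histones.

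The study holds 97 libraries, 34 of which lie behind the profiles analysed here, and all of these 34 came from the ES line Tg2a (E14tg2a). Each state had 2 ATAC-seq libraries, 3 MNase-seq libraries at each MNase concentration and 2 MNase-H3 libraries at each concentration. MNase-H3 libraries came from formaldehyde-fixed chromatin. Concentrations were 0.5, 16 and 128, with no unit in the labels. Mitotic cells for MNase-seq and MNase-H3 had 50 ng/ml nocodazole, a microtubule poison that arrests cells in mitosis, for 4 to 5 h. Those for MNase-seq were collected by shake-off and filtering, while interphase cells were untreated and collected in parallel. The labels do not name a nocodazole step for ATAC-seq, where cells are labelled only as interphase or mitotic. No genetic change is named for these cells, and the medium contained serum and LIF. Nocodazole itself and the mitotic state cannot be told apart in this design, and the share of mitotic cells per library is not given in the sources used here.

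Every group is represented by 1 pooled profile, so no spread between libraries can be had and no difference below was tested. Neighbouring positions share fragments and are not replicates. The scale of the values is not stated and the depth behind them is unknown; values are printed as thousandths of the deposited unit. The flank is the mean of the outermost 200 bp on each side. Single bases scattered about a 51-bp running mean by 7.99% to 8.98% of the flank in ATAC-seq, 4.60% to 8.80% in MNase-seq and 8.25% to 16.5% in MNase-H3. If bases scattered independently, a 51-bp mean would scatter by 0.644% to 1.23% of the flank in MNase-seq and by 1.16% to 2.31% in MNase-H3, which is error along a profile and not error between libraries. The left and right sides of each profile had nearly equal means, with ratios from 0.985 to 1.01.

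In ATAC-seq, Oct4/Sox2 sites were open in interphase and, in the deposited values, about 0.50 times as open in mitosis. Within 100 bp of the centre the level was 4.28 in interphase and 2.13 in mitosis, a ratio of 0.498. The flanks, at 1.53 and 1.34, were far closer to each other, with a ratio of 0.878. The centre therefore stood 2.80 times above its flank in interphase and 1.59 times in mitosis, a flank-scaled ratio of 0.567. The part of the central signal above the flank was 2.75 in interphase and 0.789 in mitosis, so 0.287 of it was present in mitosis. A central maximum above the flank was thus still measured in the mitotic profile.

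The ratio between the states depended on distance from the centre. From 100 to 200 bp it was 0.600 (3.15 in interphase, 1.89 in mitosis) and from 200 to 400 bp it was 0.734 (2.22 and 1.63). From 400 to 600 bp it was 0.814, and from 600 to 800 bp it was 0.852. The mitotic level was the lower one in all of these bands. The mitotic bump was also wider. The running mean of 51 bp came down to 50% of the central excess at 170 bp to the left and 167 bp to the right in interphase, and at 208 and 241 bp in mitosis.

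**Figure D1:**
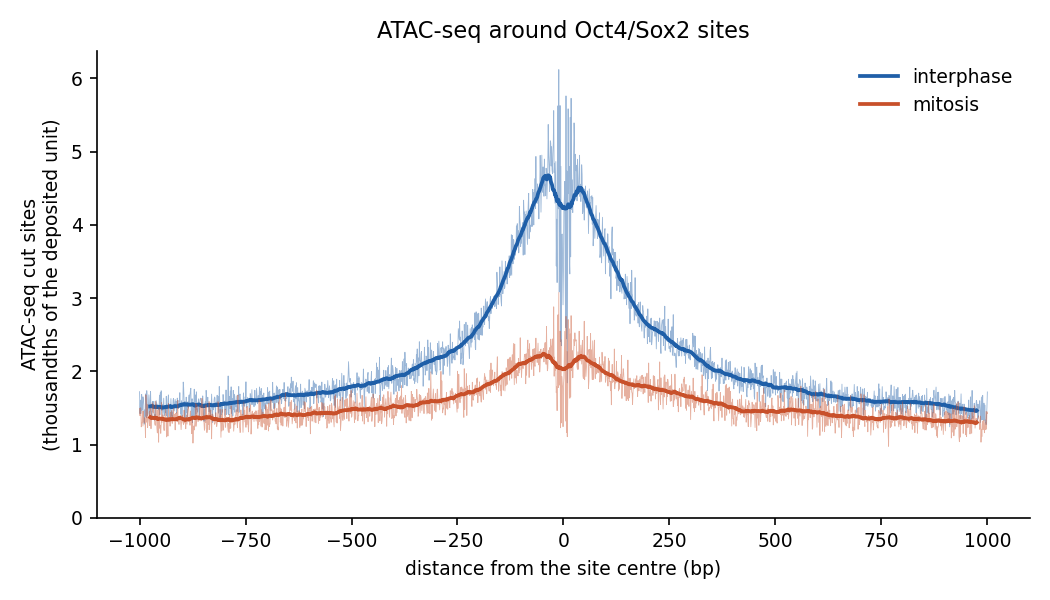
ATAC-seq cut sites around Oct4/Sox2 sites (x axis, distance from the site centre in bp; y axis, thousandths of the deposited unit). Thin lines are single bases and thick lines the 51-bp running mean of the pooled interphase (blue) and mitotic (orange) profile, with central levels of 4.28 and 2.13 and flanks of 1.53 and 1.34.

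The 4 other site classes in the table give a frame for this ratio. At the centre it was 0.549 at Esrrb sites that the table calls lost in mitosis (3.74 in interphase, 2.05 in mitosis), 0.584 at summits of EP300, a histone acetyltransferase of active enhancers (6.64 and 3.87), and 0.881 at Esrrb sites called bookmarked (3.41 and 3.00). It was 1.35 at transcription start sites (9.12 and 12.3). Oct4/Sox2 sites thus had the lowest central ratio of the 5 classes, close to that of the lost Esrrb sites. Their flank ratio of 0.878 lay inside the range of the other classes, from 0.786 to 1.10. These differences between classes were not tested.

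Single bases at the centre of the ATAC-seq profile swung widely, in the same way in both states. Over the 51 bases within 25 bp of the centre, their SD about the running mean was 23.1% of the local mean in interphase and 22.7% in mitosis. At the lost Esrrb sites the same measure was 4.10% and 6.51%, at the bookmarked ones 5.88% and 5.77%, and at EP300 summits 4.40% and 5.75%. Transcription start sites, where profiles are aligned to a base, had 11.4% and 11.1%. The residuals of the 51 bases correlated between the states at r = 0.93 for Oct4/Sox2 sites, 0.94 for start sites and 0.13 to 0.35 for the other classes. This r is across bases of pooled profiles that share their sites and base composition, and it is a description only.

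The lowest base was the same in both states, 9 bp to the right of the centre, with 1.84 in interphase and 1.11 in mitosis. The highest was 11 bp to the left, with 6.12 and 3.08. Of the 5 lowest bases in interphase, 4 were also among the 5 lowest in mitosis, and the same count held for the 5 highest. All 51 bases had a lower value in mitosis, with ratios from 0.404 to 0.601. The pattern was locked to position, as at start sites, although the table calls the centre of these profiles a summit. How that centre was set is not given in the sources used here.

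**Figure D2:**
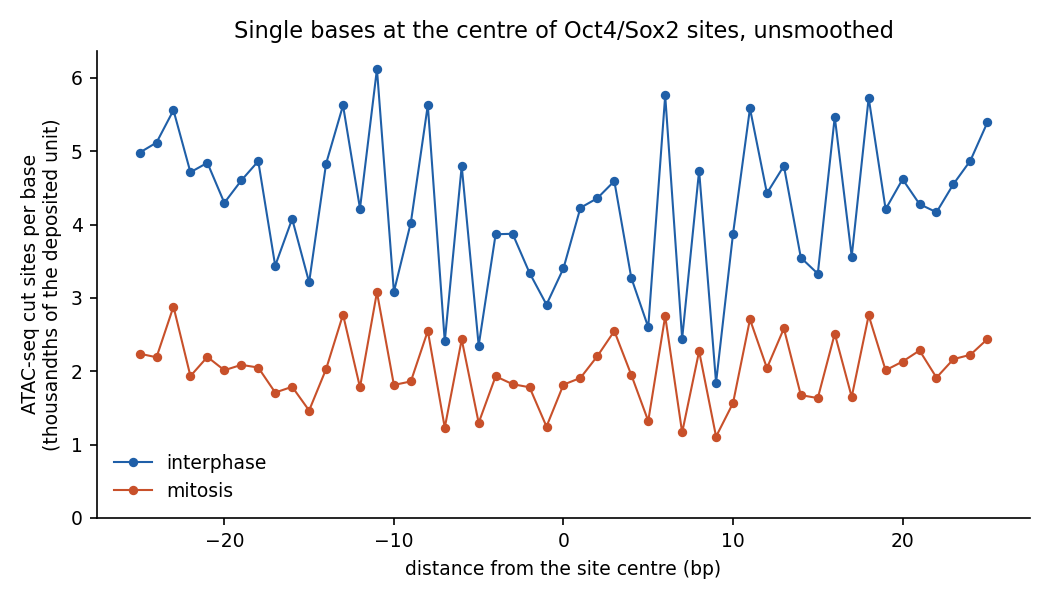
Unsmoothed ATAC-seq cut sites at the 51 bases around the centre of Oct4/Sox2 sites (x axis, distance from the centre in bp; y axis, thousandths of the deposited unit; 1 point per base and state). The interphase (blue) and mitotic (orange) profiles zigzag at the same bases, with the lowest point 9 bp to the right and the highest 11 bp to the left.

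After smoothing, the centre also showed a shallow dip between shoulders. In interphase the shoulders were 36 bp to each side (4.68 on the left, 4.51 on the right) and the level between them went down to 4.22, which is 8.11% below their mean. In mitosis the shoulders lay 48 bp to the left and 41 bp to the right (2.24 and 2.21), with 2.03 between them, 8.85% below. Relative to its shoulders the dip was therefore of similar depth in both states, while its absolute level was much lower in mitosis.

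MNase-seq in interphase showed a regular nucleosome array around the motif at every concentration. Positions are those of the maxima of the 51-bp running mean. At concentration 16 the first maxima lay 181 bp to either side, at 1.38 times the flank on both sides. The second followed at 370 bp on the left and 381 bp on the right (1.19 and 1.18 times the flank), and the third at 535 and 557 bp (1.10 and 1.11). Between the motif and the first maxima were minima 85 bp to the left and 89 bp to the right, at 1.05 and 1.03 times the flank. Maxima therefore followed one another every 183 bp on average, and stood out less with distance.

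The array kept about the same geometry across the titration in interphase. The first maxima were on average 178 bp from the motif at 0.5 and 177 bp at 128, with mean spacings of 187 and 194 bp. What differed with concentration was the motif itself. The central maximum was 1.07 times as high as the mean of the first maxima at 0.5, 0.861 times at 16 and 0.793 times at 128. Within 40 bp of the motif, midpoints were 1.41 times the flank at 0.5, 1.18 times at 16 and 0.933 times at 128. The motif thus went from the highest point of the profile at the mildest digestion to below the flank at the strongest. The first maxima took no such course, at 1.34 to 1.38 times the flank at the lower concentrations and 1.19 to 1.21 times at 128.

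**Figure D3:**
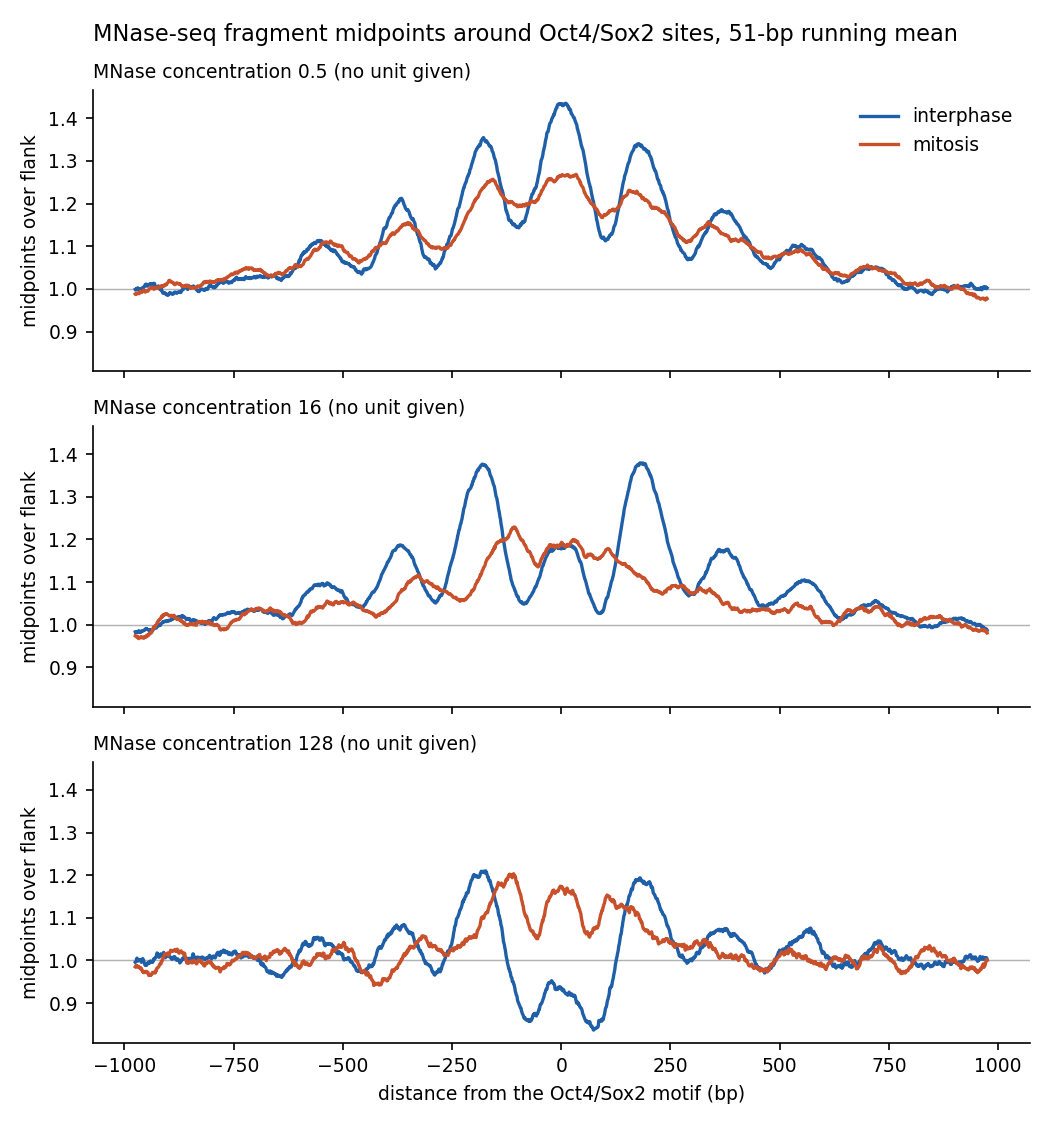
MNase-seq fragment midpoints around the Oct4/Sox2 motif at MNase concentrations 0.5, 16 and 128 (x axis, distance from the motif in bp; y axis, 51-bp running mean divided by the profile's own flank). Interphase (blue) shows a ladder of maxima with mean spacings of 187, 183 and 194 bp, and mitosis (orange) a flatter profile that is higher than interphase from 75 to 125 bp, by 5.32%, 13.6% and 26.6% of the flank.

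In mitosis the array was weaker at every concentration, and at 16 and 128 its first maxima did not lie at those of interphase. At 0.5 the mitotic maxima sat near the interphase ones but closer to the motif, the first at 156 bp on the left and 155 bp on the right, and they were lower, at 1.26 and 1.23 times the flank against 1.35 and 1.34 in interphase. At 16 the mitotic profile had its first maxima at 108 bp on the left and 106 bp on the right, nearer to the interphase minima (85 and 89 bp) than to the interphase maxima (181 bp). With a 25-bp running mean their average distance was 93.5 bp, and with a 75-bp one they had no value. At 128 they lay at 109 and 105 bp, yet the mitotic profile was still higher at the first interphase maxima than at the interphase minima beside them. That difference was 5.12% of the flank in mitosis at 128 and -0.651% at 16, against 28.9% and 33.0% in interphase. The right-hand maximum at 16 was small, at 1.18 times the flank against 1.15 at the minimum on its inner side.

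The space beside the motif was compared in fixed zones, the mean of both sides. These zones were set near the interphase maxima and minima after the profiles had been seen, so interphase values are extreme in them by choice. From 75 to 125 bp, around the first interphase minimum, MNase-seq at 16 gave 1.06 times the flank in interphase and 1.19 in mitosis. At 128 it gave 0.893 and 1.16, and at 0.5 it gave 1.13 and 1.18. The interphase minima at 128 lay 71 bp to the left and 74 bp to the right, just short of this zone. From 155 to 205 bp, at the first interphase maximum, the order was the opposite, with 1.38 in interphase and 1.12 in mitosis at 16, 1.20 and 1.10 at 128, and 1.34 and 1.23 at 0.5. The mitotic value was the higher one from 75 to 125 bp and the lower one from 155 to 205 bp at all 3 concentrations.

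Farther out the same alternation was found with smaller differences. At the second minimum (260 to 310 bp) mitosis was above interphase by 4.03%, 1.97% and 4.10% of the flank at 0.5, 16 and 128. At the second maximum (345 to 395 bp) the mitotic value minus the interphase value was -5.99%, -11.9% and -6.64% of the flank. At the third maximum (530 to 580 bp) it was -1.50%, -5.87% and -4.73%. The difference at 0.5 in the last zone is close to the scatter along the profile given above.

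At the motif itself, relative to the flank, the comparison between the states turned with the concentration. At 0.5, midpoints within 40 bp were 1.41 times the flank in interphase and 1.26 times in mitosis. At 16 the values of 1.18 and 1.19 were nearly equal. At 128 they were 0.933 times the flank in interphase and 1.16 times in mitosis. Across the titration the mitotic motif therefore ranged only from 1.16 to 1.26 times the flank, against 0.933 to 1.41 times in interphase.

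The deposited values, before division by the flank, gave other ratios. Within 40 bp of the motif the level was 0.817 in interphase and 0.934 in mitosis at 0.5, a ratio of 1.14. It was 0.848 and 0.722 at 16, a ratio of 0.852, and 0.203 and 0.206 at 128, a ratio of 1.01. The flank had ratios of 1.28, 0.851 and 0.812, and the other site classes had flank ratios of 1.24 to 1.31, 0.763 to 0.834 and 0.758 to 0.812. Levels thus differed between the profiles over the whole window and at all classes, which is why shapes are compared here relative to each profile's flank. What they come from was not tested.

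MNase-H3, which keeps histone-bearing particles, showed the same interphase array. First maxima were on average 187 bp from the motif at 0.5, 181 bp at 16 and 203 bp at 128, with mean spacings of 180, 187 and 180 bp. On both sides of the motif the first minima were below the flank, at 0.906 and 0.909 times the flank at 0.5, 0.868 and 0.896 times at 16, and 0.738 and 0.765 times at 128. A central maximum was present between them at each concentration, at 1.09, 1.08 and 0.905 times the flank. It was lower than the first maxima throughout, at 0.906, 0.880 and 0.835 times their mean height.

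Relative to the flank, the H3 signal at the motif and beside it was higher in mitosis than in interphase. Within 40 bp it was 1.13 times the flank in mitosis against 1.09 in interphase at 0.5, 1.20 against 1.06 at 16, and 1.12 against 0.886 at 128. In the deposited values the mitosis over interphase ratio within 40 bp was 1.20, 1.14 and 0.993. From 75 to 125 bp the gap between the states, scaled to the flank, was wider. The values there were 1.06 in mitosis against 0.920 in interphase at 0.5, 1.17 against 0.916 at 16, and 1.09 against 0.792 at 128. At the first interphase maximum (155 to 205 bp) the mitotic profile was lower, with 1.17 against 1.20, 1.08 against 1.22 and 1.03 against 1.06. The mitotic minus interphase differences there at 0.5 and 128, -2.35% and -2.97% of the flank, were close to the scatter along the profiles, while at 16 the difference was -14.0%.

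The first mitotic maxima of MNase-H3 lay near those of MNase-seq. For 0.5 they were at 164 bp on the left and 151 bp on the right. They lay at 108 and 106 bp for 16 and at 113 and 111 bp for 128. At 128 the authors' smooth curve of the mitotic MNase-H3 profile was almost flat, so the positions of its maxima are uncertain. In all 6 MNase-seq and MNase-H3 pairs, the point where mitosis most exceeded interphase lay 97 to 108 bp from the motif. There the excess was 6.20%, 15.3% and 27.2% of the flank in MNase-seq at 0.5, 16 and 128, and 17.5%, 26.9% and 31.9% in MNase-H3. In percent of the flank, the excess was thus larger at each higher concentration in both assays. The deposited values did not rise in this way. From 75 to 125 bp their mitosis over interphase ratio was 1.34, 0.961 and 1.05 in MNase-seq at 0.5, 16 and 128. In MNase-H3 it was 1.34, 1.28 and 1.08.

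**Figure D4:**
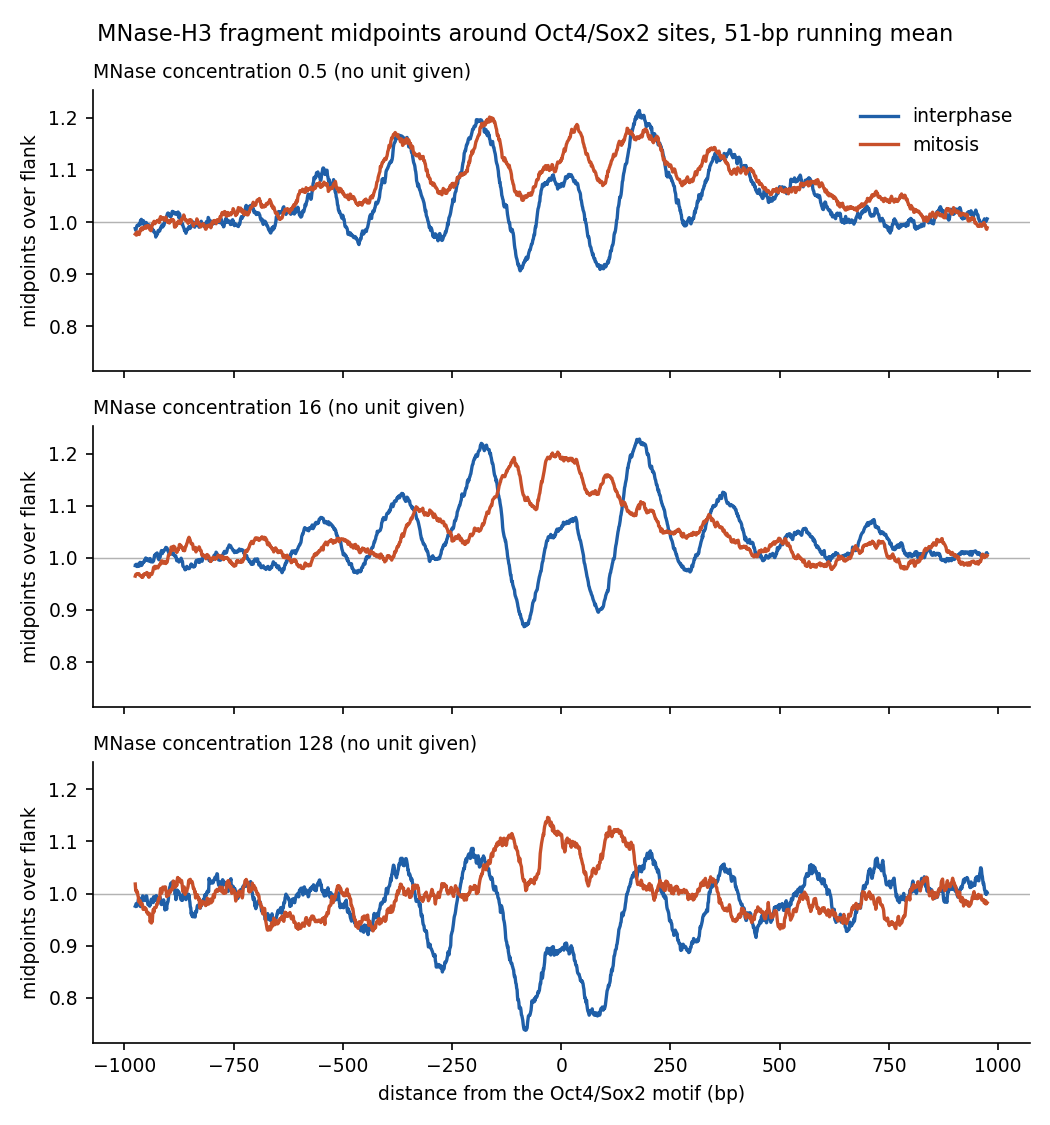
MNase-H3 fragment midpoints around the Oct4/Sox2 motif at MNase concentrations 0.5, 16 and 128 (x axis, distance from the motif in bp; y axis, 51-bp running mean divided by the profile's own flank). In interphase (blue) the minima beside the motif reach 0.738 times the flank at 128. The mitotic minima (orange) at 128 are close to the flank, at 1.01 times on each side.

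The H3 profile was set against the MNase-seq profile at the motif, each profile first divided by its own flank. Their quotient is relative to the flank and is not the share of midpoints that carry histones. In interphase this quotient at the motif was 0.772 at 0.5, 0.896 at 16 and 0.949 at 128. In mitosis it was 0.900, 1.01 and 0.963. At the interphase first maxima the quotient varied less, from 0.888 to 0.902 in interphase and from 0.918 to 0.960 in mitosis. In interphase the motif therefore had the least H3 signal relative to MNase-seq at the mildest digestion. There both flank-scaled signals were at their highest, at 1.41 in MNase-seq, the divisor of the quotient, and 1.09 in MNase-H3. The MNase-H3 libraries were fixed and the labels name no fixative for the MNase-seq ones, so the quotient also contrasts those preparations.

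The strength of the array was summarised as the SD of the running mean about a wider one that reached 150 bp to each side, taken from 100 to 850 bp from the motif and in percent of the flank. In MNase-seq it was 6.15% in interphase and 2.43% in mitosis at 0.5, 7.14% and 2.31% at 16, and 6.03% and 2.65% at 128. In MNase-H3 it was 6.22% and 3.23% at 0.5, 6.29% and 2.37% at 16, and 6.07% and 2.51% at 128. Mitosis was lower in all 6 pairs, at 0.324 to 0.519 times the interphase value. The interphase values of the 2 assays lay close together, and the mitotic MNase-H3 value at 128 was near the 2.16% that scatter of independent bases would give.

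The register of the array also set the mildest digestion apart. Over 1502 positions, the detrended interphase and mitotic profiles correlated at r = 0.83 in both assays at 0.5. At 16 the values were -0.20 in MNase-seq and -0.23 in MNase-H3, and at 128 they were 0.05 and 0.03. These are correlations across smoothed neighbouring positions of 2 pooled profiles, given as a description of shape. At 0.5 the mitotic ladder was thus weaker and its first maxima were nearer to the motif, at 156 against 178 bp on average in MNase-seq and 158 against 187 bp in MNase-H3.

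Among the site classes, Oct4/Sox2 sites had the highest interphase order in MNase-H3. Their values were 6.07% to 6.29%, against 1.46% to 6.08% in the other classes over all concentrations. At 16 they were nearly level with start sites, at 6.29% and 6.08%. In MNase-seq, only transcription start sites were higher, at 6.15%, 9.45% and 11.8%, and at 0.5 they were level with the Oct4/Sox2 sites. Start sites also had lower order in mitosis (2.99% to 4.12% in MNase-seq). The lost Esrrb sites, centred on the same Oct4/Sox2 motif, had 3.02% to 3.42% in interphase and 1.24% to 1.70% in mitosis in MNase-seq. In MNase-seq, bookmarked Esrrb sites went the other way, from 3.30% to 3.92% in interphase to 5.79% to 6.71% in mitosis. Their r between the states was 0.79 to 0.94 in MNase-seq and 0.70 to 0.80 in MNase-H3. At the Esrrb motif, lost sites had mitosis over interphase order ratios of 0.897, 1.14 and 1.45 in MNase-seq at 0.5, 16 and 128. In MNase-H3 these were 0.930, 1.27 and 1.49. EP300 summits had 0.624, 0.654 and 1.15 in MNase-seq and 0.870, 0.624 and 1.01 in MNase-H3. The classes were not tested against each other, and sites may be shared between them.

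**Figure D5:**
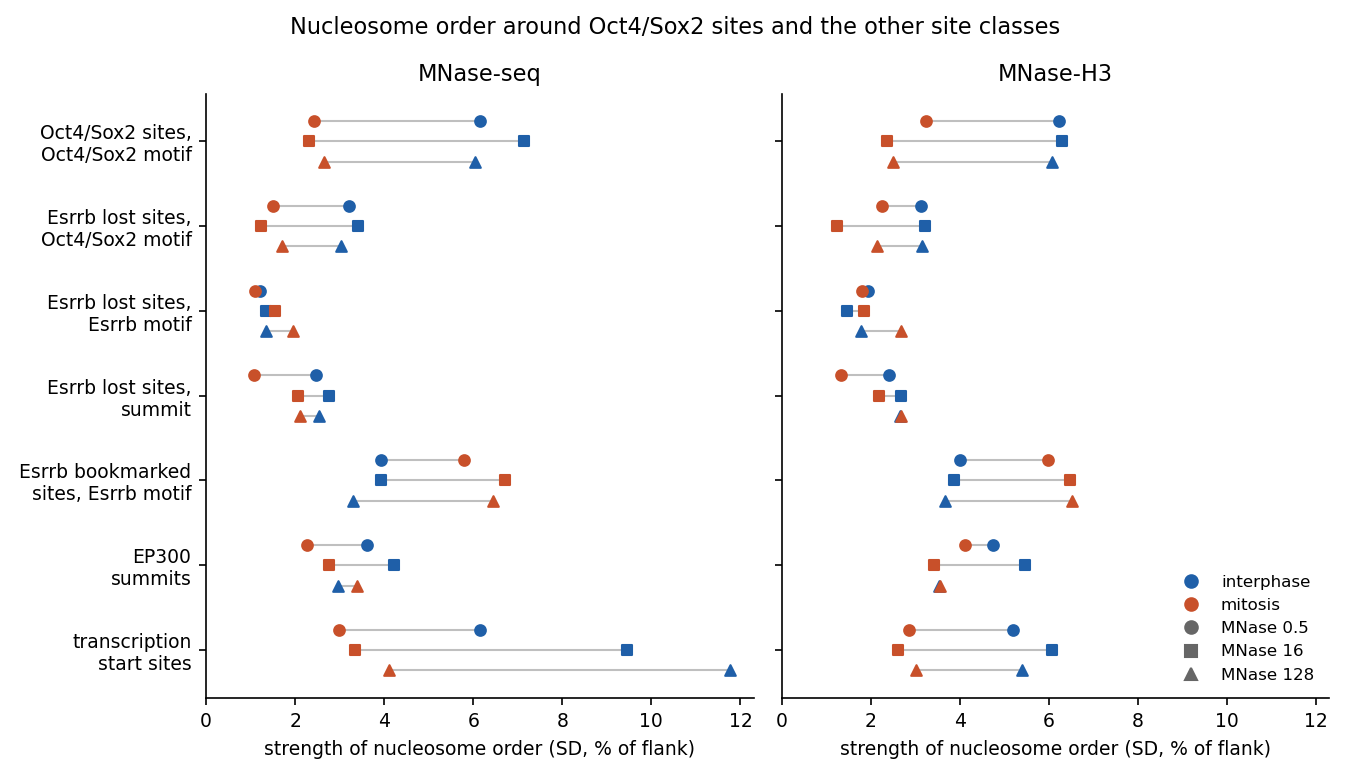
Strength of nucleosome order (x axis, SD of the 51-bp running mean about a wider one, in percent of the flank) for each site class and centre (y axis) in MNase-seq and MNase-H3. Each point is 1 pooled profile, symbols give the MNase concentration, and grey lines join interphase (blue) and mitosis (orange), which is lower in all 6 pairs at Oct4/Sox2 sites and higher in all 6 at bookmarked Esrrb sites.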

How the data were processed

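The profile table was deposited by the authors as a signal per base around site centres, pooled over the libraries of a group. Its scale and fragment filter are not given in the sources used here. The labels' protocols describe the cells, and the submitters' processing notes name Bowtie2, MACS2, STAR, RSEM and the mm9 assembly without roles or versions. Depth is unknown, so no interval or detection limit can be given. Rows labelled as midpoints (MNase-seq, MNase-H3) or cut sites (ATAC-seq) were used, and the authors' smooth curves served as an alternative.

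Profiles were multiplied by 1000 and measured in Python 3.11.15 with numpy 2.4.6 and pandas 2.3.3. The central window spanned 100 bp (ATAC-seq) or 40 bp (MNase) on each side. Maxima were sought at 75 to 270, 270 to 460 and 460 to 640 bp, and one within 5 bp of a window's edge was not counted, which left the left-hand second maximum of mitotic MNase-H3 at 128, and so that profile's spacing, without a value. The measures were tested on simulated ladders, which had less base scatter than most of the profiles here. Site class, windows and zones were chosen with earlier results of these data known. The features described were the centre, the local maxima and minima and the flank, and no genes were named. RNA and ChIP-seq libraries were not analysed here.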

Additional observations from a re-analysis of the deposited data

Results flagged for a closer look

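At the Oct4/Sox2 motif, the mitotic and interphase MNase-seq profiles stood in opposite order at the lowest and the highest MNase concentration only when scaled to the flank. After division of each profile by its flank, the mitotic value within 40 bp of the motif was 0.891 times the interphase value at 0.5 and 1.25 times at 128. In the deposited values the ratios were 1.14 and 1.01, so the direction at 0.5 turned with the scaling. Each value rests on 1 pooled profile per state, and the difference between the concentrations was not tested.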

How the results depend on the processing

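Each central ratio, centre over flank, maximum position, spacing and order value was recomputed with 1 setting changed, which gave 135 values. With no replicate spread, a value was taken as moved past 1.1 times for a ratio, 1.5 times for order and 20 bp for a distance. Of the 135, 117 stayed within these limits and 14 moved. Another 4 went to the other side of 1. Dividing by the flank turned the mitosis over interphase ratio at the motif to 0.891 (MNase-seq at 0.5), 1.001 (at 16) and 1.265 (MNase-H3 at 128). It moved that ratio to 1.247 for MNase-seq at 128, to 1.039 for MNase-H3 at 0.5 and to 0.567 for ATAC-seq. A wider central window of 75 bp gave 0.998 for MNase-seq at 128. Wider or narrower windows, a flank of 40%, a running mean of 25 or 75 bp and a wide mean reaching 100 bp to each side changed nothing else past the limits. For mitotic MNase-seq at 16, the spacing had no value with either running mean and the first maxima had none with that of 75 bp.

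Other alternatives were chosen after seeing the data. Without smoothing of bases, order included base scatter and was 10.5% (interphase) and 9.33% (mitosis) for MNase-seq at 128 and 5.55% and 5.81% for mitosis at 0.5 and 16. For MNase-H3 it was 13.7% and 10.3% at 0.5, 11.4% and 8.62% at 16, and 17.7% and 15.5% at 128. The authors' smooth curve of mitotic MNase-H3 at 128 was almost flat, with an order of 0.157%. Mitosis remained the lower state in all 6 pairs under each setting, at 0.624 to 0.887 times interphase without smoothing and 0.0259 to 0.489 times with the authors' curves. No paired analysis was possible because each group is 1 pooled profile, and leaving out single libraries was not run for the same reason.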
